A study of Mus musculus with 6 samples.

Results

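The phagocyte NADPH oxidase was described here through 6 of its subunit genes, Cybb, Cyba, Ncf1, Ncf4, Rac1 and Rac2, in mouse leukemias. Every probe set annotated to one of these symbols alone was taken, which gave 13 of the 45101 probe sets on the array: 3 each for Cybb, Ncf1 and Rac1, 2 for Rac2, and 1 each for Cyba and Ncf4. All leukemias carried MLL-ENL, an oncogene that joins a histone methyltransferase to an elongation factor. It was introduced into C57BL/6 bone marrow cells, which were then transplanted into congenic mice. Leukemic cells of moribund recipients were profiled on 3 arrays labelled Runx1-KO (Runx1 excised before MLL-ENL was introduced) and 3 labelled Control (Runx1-intact, with MLL-ENL as well), each from an independent leukemia. The driver of the excision, the age of the mice and the share of host cells left in a sample are not given in the sources used here. The comparison asked how expression in these leukemias differed with the state of Runx1, a transcription factor gene of blood development.

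The oxidase is the enzyme by which neutrophils and macrophages pass electrons from NADPH to oxygen and make superoxide, the source of the respiratory burst against microbes. Its membrane core, flavocytochrome b558, is a pair of proteins: gp91phox, encoded by the X-linked gene Cybb, carries the electrons, and p22phox, encoded by Cyba, stabilises it and provides the docking site. On activation, the cytosolic organiser p47phox (Ncf1) and p40phox (Ncf4), which binds phosphoinositides of the phagosome, move to the membrane together with a Rac GTPase. Rac2 is the main Rac of neutrophils, while Rac1 is found in nearly all cells. In humans, loss of gp91phox, p22phox, p47phox or p40phox impairs the burst and underlies forms of chronic granulomatous disease.

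One start region each of Cybb, Cyba and Ncf1 is shown because the genotype concerns a transcription factor and because the flavocytochrome partners differed in how their signal varied between leukemias. The windows are those of the RefSeq table for GRCm38.p6, each with 250 bases before and 50 after the annotated start, all on the minus strand: chrX:9469275-9469574 for Cybb, chr8:122432891-122433190 for Cyba and chr5:134229576-134229875 for Ncf1. The Cyba and Ncf1 windows span the upper coordinate bound of the gene, which is where a gene on the minus strand starts. The Cybb window instead lies inside the outer bounds RefSeq gives the gene. RefSeq therefore places another Cybb start further upstream, which is not shown. Capitals mark matches, on either strand, to the RUNX motif TGTGGT or TGCGGT and to GAGGAA, a core bound by the ETS factor PU.1 (its other strand reads TTCCTC).
Cybb: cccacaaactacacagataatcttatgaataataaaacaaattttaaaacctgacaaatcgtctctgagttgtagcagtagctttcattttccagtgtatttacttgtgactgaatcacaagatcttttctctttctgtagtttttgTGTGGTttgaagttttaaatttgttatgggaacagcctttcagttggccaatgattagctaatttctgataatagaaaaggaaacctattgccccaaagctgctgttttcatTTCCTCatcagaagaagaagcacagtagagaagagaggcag
Cyba: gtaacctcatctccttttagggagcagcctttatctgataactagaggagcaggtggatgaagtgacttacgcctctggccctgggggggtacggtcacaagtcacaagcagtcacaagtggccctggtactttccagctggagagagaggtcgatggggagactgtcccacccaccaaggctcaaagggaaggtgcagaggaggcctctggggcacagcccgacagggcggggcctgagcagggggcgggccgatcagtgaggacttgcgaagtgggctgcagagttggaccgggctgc
Ncf1: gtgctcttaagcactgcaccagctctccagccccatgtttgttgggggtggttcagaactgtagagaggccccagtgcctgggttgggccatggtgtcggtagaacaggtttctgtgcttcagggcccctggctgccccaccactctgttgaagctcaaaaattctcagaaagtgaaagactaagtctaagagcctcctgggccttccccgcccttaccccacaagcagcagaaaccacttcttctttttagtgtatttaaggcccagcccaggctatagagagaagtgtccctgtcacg
The Cybb window held 1 RUNX match, beginning 103 bases before the start that the table uses, and 1 GAGGAA match on the other strand, while the Cyba and Ncf1 windows held 0 of either. Among 32851 such windows of all genes, 22.4% held the RUNX motif, 28.3% held GAGGAA and 6.19% held both. The Cybb window was poor in G and C (35.3%, against 60.7% for Cyba, 54.0% for Ncf1 and a median of 52.7% over all windows). The matches describe letters and do not show that either factor binds there. Rac1, Rac2 and Ncf4 were not matched in that table.

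Some features of the arrays bear on every value below. Median intensities ranged from 24.4 to 25.99, and a background limit, set on each array by the brightest of 27 probe sets for RNAs that were not added, lay between 14.1 and 22.5. Runx1 signal was higher in the arrays labelled Runx1-KO on 6 of 6 probe sets, by 1.70-fold to 3.18-fold, and the sources used here do not give where these lie relative to the excised part. This does not check the labels, so directions are given by label throughout. Xist, the RNA of the inactive X chromosome, stood at 1624 to 1895 in Runx1-KO-labelled leukemias, against 25.3 to 331 in Control, and the Y-linked gene Eif2s3y lay below the background limit on 3 of 3 arrays labelled Runx1-KO and above it on 3 of 3 Control arrays. Sex and genotype cannot be told apart in this design. In Runx1-KO 1 the Gapdh probe set near the transcript's 3' end was 7.10 times as bright as that near its 5' end, against 2.67 to 3.02 times in the other 5 arrays; a high ratio is a sign of shortened RNA. Control 1 was high in red cell genes. In bulk samples, fewer cells of a type and less RNA per cell cannot be told apart.

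Of the oxidase probe sets, 12 lay above the background limit on all 6 arrays, with intensities from 119 to 2392, and 1 of the Rac1 probe sets, 1437674_at, lay below it on every array (2.46 to 4.16). None of the 13 passed the comparison of arrays labelled Runx1-KO with Control: 0 passed limma's test at an adjusted p of 0.05, where 0.0688% of all 45037 probe sets passed, and 2 had an unadjusted p below 0.05, where 11.3% of all did. The lowest adjusted p was 0.275. The groups did not overlap in 5 of the 13 probe sets, 1 with the arrays labelled Runx1-KO higher and 4 with them lower, against 19.2% of all probe sets (8.62% higher and 10.6% lower) and 25% of those above the background limit on all arrays. On the brightest probe set of each gene, 5 of 6 genes had a negative difference, and the median log2 difference was -0.13, against -0.06 over the 9688 genes whose brightest probe set was above background on all arrays. With 3 arrays against 3, an exact permutation test cannot give a p below 0.1.

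**Figure D1:**
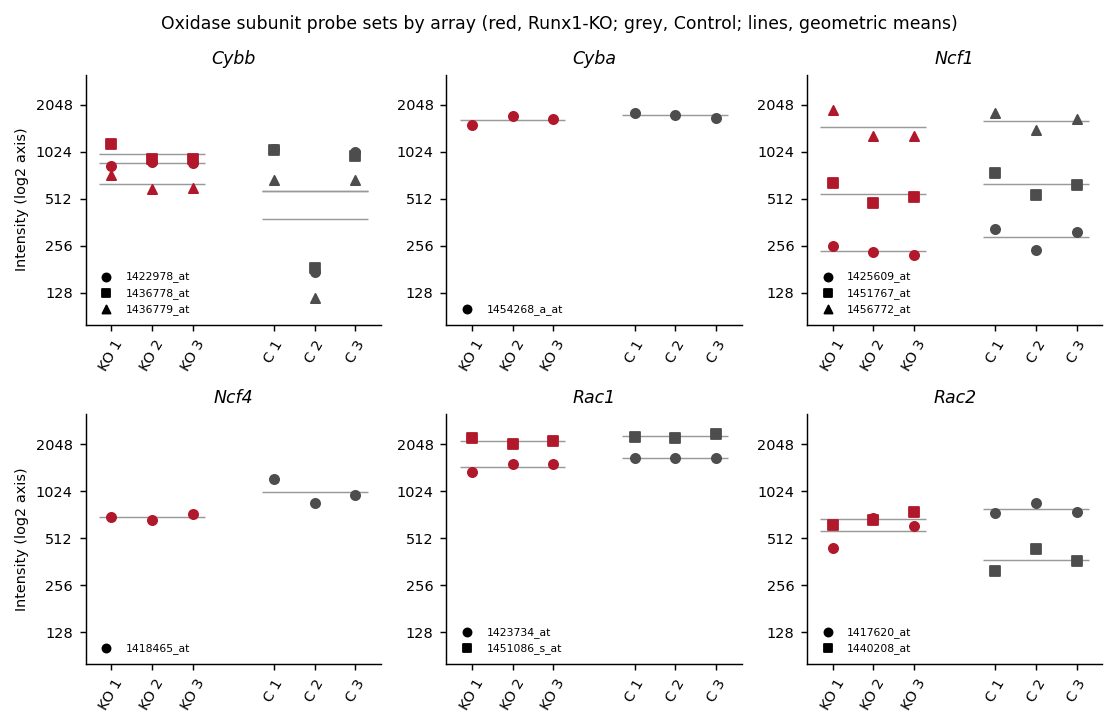
Intensity (log2 axis) of the 12 oxidase probe sets above background, for each array labelled Runx1-KO (KO, red) and Control (C, grey), with symbols for the probe sets of a gene and lines at geometric means. All 3 Cybb probe sets lie lowest in Control 2, Ncf4 lies lower in every array labelled Runx1-KO, and the 2 Rac2 probe sets differ in opposite directions.

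Cybb was the only one of the 6 genes in which a single leukemia stood far from all others. On its brightest probe set, 1436778_at, the intensity was 1156, 919 and 927 in Runx1-KO 1, 2 and 3 and 1057, 184 and 961 in Control 1, 2 and 3. The other 5 leukemias lay close together, and Control 2 lay 5.42-fold below their geometric mean and 4.98-fold below the lowest of them. The other 2 probe sets showed the same array low: 1422978_at read 836, 883 and 871 in Runx1-KO-labelled leukemias, against 1073, 173 and 1022 in Control, and 1436779_at read 731, 587 and 599.9 in Runx1-KO-labelled leukemias, against 678, 119 and 676 in Control. Control 2 was still well above its background limit of 14.1 on all 3.

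The log2 difference of 1436778_at was 0.80 ± 0.68 (SE, n = 3 per group, 95% interval -0.83 to 2.42), with a limma adjusted p of 0.694. Its sign rested on Control 2. Without that array the difference was -0.02 on 1436778_at, -0.28 on 1422978_at and -0.09 on 1436779_at, so all 3 probe sets changed direction. The groups overlapped on each of them. On 1436778_at the highest value was 1.26 times the lowest among arrays labelled Runx1-KO and 5.73 times the lowest among Control arrays.

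Control 2 was not low across the oxidase. It lay within the range of the other 5 arrays for Cyba, for Ncf4 and for all 3 Ncf1 probe sets. The X-linked gene Dynlt3, a dynein light chain gene near Cybb, read 624, 569 and 603 in Runx1-KO-labelled leukemias, against 655, 857 and 615 in Control, highest in Control 2. Of the 7 measured genes among the 6 protein-coding neighbours looked at on each side of Cybb, Dynlt3 was the only one above background on all arrays. Over 269 X-linked genes above background, Control 2 differed from the mean of the other 5 arrays by a median of 0.07 on the log2 scale, against 0.05 over all 9688 such genes. Control 2 was at least 4-fold below the lowest of the other 5 arrays for 7 of those 9688 genes (0.0723%), a fold chosen after the Cybb values were seen. They were Dach1, Satb1, Fn1, Ces2g, Cybb, Olfm1 and Stfa2l1, and the same count was 1, 3 and 0 in Runx1-KO 1, 2 and 3 and 3 and 0 in Control 1 and 3.

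Genes of similar profile were sought by the root mean square difference between log2 profiles over the 6 arrays, each with its own mean subtracted, among 9251 named genes above background. Nearest to Cybb were Olfm1, a secreted olfactomedin protein gene (0.11), Fn1, which encodes fibronectin (0.20), and Gng10, a G protein gamma subunit gene (0.26). Fn1 stood at 1958, 1532 and 1514 in Runx1-KO-labelled leukemias, against 2240.3, 252 and 1874 in Control. All 3 therefore had the low value of Control 2.

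**Figure D2:**
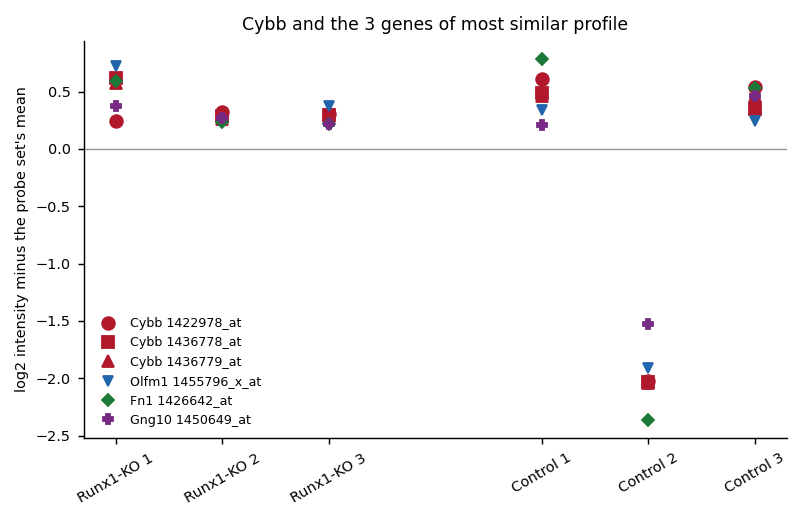
Log2 intensity minus the probe set's mean over the 6 arrays, for the 3 Cybb probe sets (red) and for Olfm1, Fn1 and Gng10, by array. The 6 probe sets lie above 0 in 5 arrays and far below it in Control 2.

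Cyba encodes the membrane partner of gp91phox, and its highest array was 1.19 times its lowest. It read 1520.1, 1736 and 1672 in Runx1-KO-labelled leukemias, against 1809, 1768 and 1679 in Control, and the groups overlapped. The log2 difference was -0.09 ± 0.19 (SE, n = 3 per group, 95% interval -0.55 to 0.36, limma adjusted p = 0.884). The ratio of Cybb to Cyba within an array differed by 0.89 on the log2 scale between the arrays labelled Runx1-KO and Control (exact two-sided permutation p = 0.6, also 0.6 after adjustment over 3 pairs of partners). Without Control 2 that difference was 0.07. The profiles nearest to Cyba were those of the ribosomal protein genes Rpl27 (0.029) and Rpl10a (0.033) and of Scaf4 (0.032).

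Ncf4 had the lowest p among the brightest probe sets of the 6 genes. Its single probe set, 1418465_at, read 703, 669 and 726 in Runx1-KO-labelled leukemias, against 1229, 864 and 969 in Control. Every array labelled Runx1-KO lay below every Control array, and the Runx1-KO values were close together while Control 1 was the highest. The log2 difference was -0.53 ± 0.22 (SE, n = 3 per group, 95% interval -1.06 to -0.00), or 1.44-fold lower, with an unadjusted p of 0.0496 and a limma adjusted p of 0.440 over all probe sets, so Ncf4 did not pass. Over the 15 alternatives the difference ran from -0.64 to -0.39 and the adjusted p from 0.180 to 0.675. The nearest profiles were those of Usf3 (0.051), Clp1 (0.060) and Tgds (0.067).

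Ncf1, the organiser subunit, had negative differences on all 3 probe sets, all with overlapping groups. Its brightest, 1456772_at, read 1887, 1291 and 1302 in Runx1-KO-labelled leukemias, against 1816, 1406 and 1672 in Control, with the highest value of all in Runx1-KO 1. The log2 difference was -0.14 ± 0.25 there (SE, n = 3 per group, limma adjusted p = 0.864), -0.21 ± 0.23 on 1451767_at and -0.30 ± 0.22 on 1425609_at. Without Runx1-KO 1, the array of high Gapdh ratio, the difference of 1456772_at was -0.32 and that of 1451767_at -0.33, and without Control 1 they were -0.062 and -0.090.

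The 2 cytosolic phox proteins were also compared within arrays. The log2 ratio of Ncf1 to Ncf4 was 1.42, 0.95 and 0.84 in Runx1-KO-labelled leukemias, against 0.56, 0.70 and 0.79 in Control. It was higher in every array labelled Runx1-KO, by 0.39 on average, at an exact two-sided permutation p of 0.1, the smallest possible, and of 0.3 after adjustment over the 3 pairs. Without Runx1-KO 1 the difference was 0.21. Prkar2a (0.059), Mrps23 (0.060) and Parp4 (0.065) had the profiles nearest to Ncf1.

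The 2 Rac2 probe sets gave opposite directions. On 1417620_at, the brighter of them, Rac2 read 446, 688 and 612 in Runx1-KO-labelled leukemias, against 741, 857 and 750.1 in Control, and the groups did not overlap. The log2 difference was -0.45 ± 0.24 (SE, n = 3 per group, 95% interval -1.03 to 0.13, limma adjusted p = 0.532), and it was -0.27 without Runx1-KO 1, which had the lowest value and the high Gapdh ratio. On 1440208_at, Rac2 read 619.9, 671 and 750.2 in Runx1-KO-labelled leukemias, against 316, 437 and 366 in Control. Here every array labelled Runx1-KO was higher, by 0.87 ± 0.22 on the log2 scale (SE, n = 3 per group, 95% interval 0.34 to 1.41) or 1.83-fold. This was the lowest p of the 13 probe sets (unadjusted p = 0.0065), but it did not pass over all probe sets (limma adjusted p = 0.275), and 2.36% of all probe sets had a p as low. Over 14 alternatives the difference of 1440208_at ran from 0.76 to 0.996, with adjusted p from 0.0729 to 0.545.

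The log2 ratio of the second Rac2 probe set to the first was 0.48, -0.04 and 0.29 in Runx1-KO-labelled leukemias, against -1.23, -0.97 and -1.04 in Control, a difference of 1.32 (exact two-sided permutation p = 0.1, the smallest possible). This ratio was computed after both probe sets had been seen to disagree. The sources used here do not give where in Rac2 the target of 1440208_at lies, so which of the 2 follows Rac2 messenger RNA was not tested. The profiles nearest to 1417620_at were those of Commd7 (0.030), Sdf4 (0.036) and Cst3 (0.050).

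Rac1 had small negative differences on its 2 measurable probe sets. On 1451086_s_at it read 2229, 2059.95 and 2135 in Runx1-KO-labelled leukemias, against 2291, 2236 and 2392 in Control, and on 1423734_at it read 1349, 1531 and 1517 in Runx1-KO-labelled leukemias, against 1673, 1678 and 1678 in Control. The groups did not overlap on either, yet the log2 differences were -0.11 ± 0.19 and -0.20 ± 0.19 (SE, n = 3 per group), with limma adjusted p of 0.864 and 0.733. The 95% interval of 1451086_s_at ran from -0.56 to 0.34. Within arrays, the log2 ratio of Rac2 (1417620_at) to Rac1 differed by -0.34 between the groups (exact two-sided permutation p = 0.3, adjusted p = 0.45 over the 3 pairs). Without Runx1-KO 1 that difference was -0.13, and without both arrays numbered 1 it was -0.16. Btn1a1 (0.027), Tcp1 (0.027) and Rnf187 (0.028) were nearest to Rac1.

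**Figure D3:**
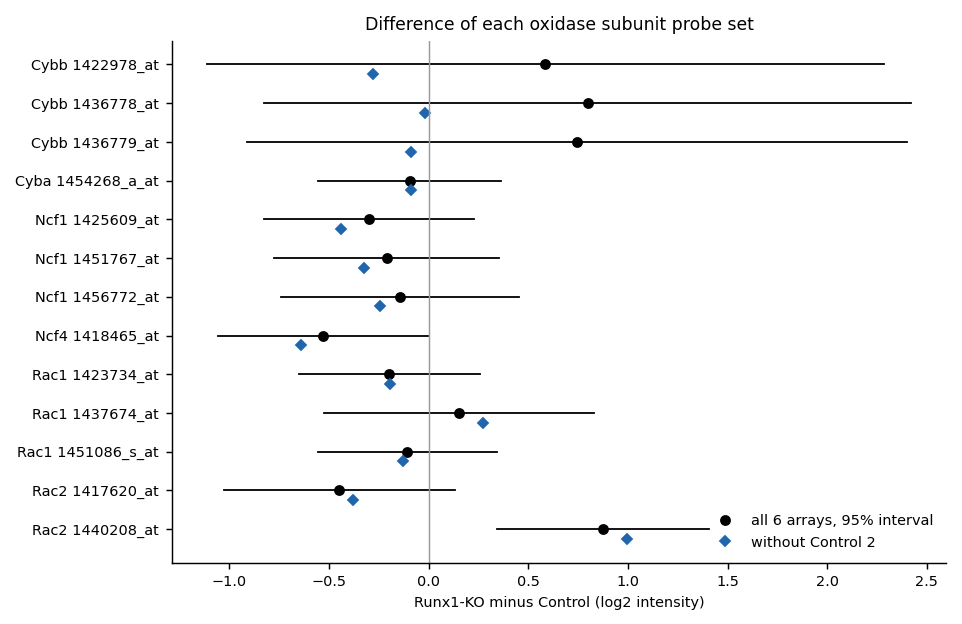
Difference of each of the 13 oxidase probe sets, arrays labelled Runx1-KO minus Control, in log2 intensity. Black points and bars give the value over all 6 arrays with its 95% interval, and blue diamonds the value without Control 2. The 3 Cybb probe sets lie between 0.59 and 0.80 with all arrays and between -0.28 and -0.02 without Control 2, while Ncf4 stays negative and Rac2 1440208_at positive.

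Ncf4 and Rac2 lie on the same chromosome with 10 protein-coding genes between them in the RefSeq order, all with a probe set. Only Csf2rb2, Csf2rb, Tst and Kctd17 of these were above background on all arrays. Their differences ran both ways, with Tst at 0.22 and Kctd17 at -0.46 on the log2 scale, both with overlapping groups. Next to Ncf4 lie Csf2rb2 and Csf2rb, which encode beta subunits of the receptors for interleukin-3 and related cytokines. Csf2rb2 read 366, 349.6 and 339 in Runx1-KO-labelled leukemias, against 294, 217 and 305 in Control, and Csf2rb read 1476, 1143 and 1305 in Runx1-KO-labelled leukemias, against 1425, 1130.3 and 1279 in Control. Csf2rb2 was thus higher in every array labelled Runx1-KO, with a log2 difference of 0.39 ± 0.22, and Csf2rb overlapped, at 0.03 ± 0.22. Neither passed (limma adjusted p = 0.557 and 0.970).

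Genes that assemble or activate the oxidase had lower signal in the arrays labelled Runx1-KO in most cases, although 0 of 13 measured members passed limma's test, where 0.066% of all genes did. Of the 13, 12 had a negative difference, and in 8 the arrays labelled Runx1-KO all lay below Control, against 17.2% of the 9688 genes above background on all arrays, as these 13 were. Their median log2 difference was -0.34 (-0.06 over those 9688 genes). It was -0.40 without Control 2, -0.23 without Runx1-KO 2 and -0.34 without both arrays numbered 1. Of these 13 genes, 2 had an unadjusted p below 0.05, where 11.7% of the 9688 genes did.

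Those 2 were Cybc1 and Hvcn1. Cybc1, which encodes the chaperone EROS needed for gp91phox to accumulate, read 222, 142 and 183 in Runx1-KO-labelled leukemias, against 347, 319 and 289 in Control. The difference was -0.82 ± 0.24 on the log2 scale (SE, n = 3 per group; limma adjusted p = 0.325). Hvcn1, the proton channel that balances the charge moved by the oxidase, read 135, 160.3 and 238 in Runx1-KO-labelled leukemias, against 273, 448 and 290.3 in Control, with a difference of -0.93 ± 0.32 on the log2 scale (limma adjusted p = 0.373). The groups did not overlap in either gene. Others with separate groups, named after their values were seen, included the protein kinase C gene Prkcd (-0.74), the phosphoinositide 3-kinase genes Pik3cg (-0.51) and Pik3cd (-0.47), the Rac-activated kinase gene Pak2 (-0.34) and the Rac exchange factor gene Dock2 (-0.30). The Rac exchange factor genes Vav1, Vav3 and Prex1 and the small GTPase gene Rap1a overlapped between groups, as did Prkcb, the single member with a positive difference (0.02).

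Among regulators known to act on oxidase genes, Irf8 stood apart from the other members. Irf8, which with PU.1 drives Cybb in myeloid cells, read 309, 183 and 284 in Runx1-KO-labelled leukemias, against 617, 442 and 874 in Control, with no overlap. The log2 difference was -1.30 ± 0.34 (SE, n = 3 per group), with a limma adjusted p of 0.291. Spi1, which encodes PU.1, read 274, 449.997 and 322 in Runx1-KO-labelled leukemias, against 239, 297 and 292 in Control (log2 difference 0.31 ± 0.26, limma adjusted p = 0.688). Without Runx1-KO 2, the highest array, the difference of Spi1 was 0.11, and without Runx1-KO 1 it was 0.47. Control 2, the array of low Cybb, had the lowest Irf8 among Control arrays but lay above all arrays labelled Runx1-KO, and its Spi1 was the highest of Control. Of the 8 measured members 0 passed, 7 had a positive difference, 1 lay separate and higher (Hoxa9, against 9.28% of the 9688 genes) and 1 separate and lower (Irf8, against 17.2%), and the median log2 difference was 0.08.

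**Figure D4:**
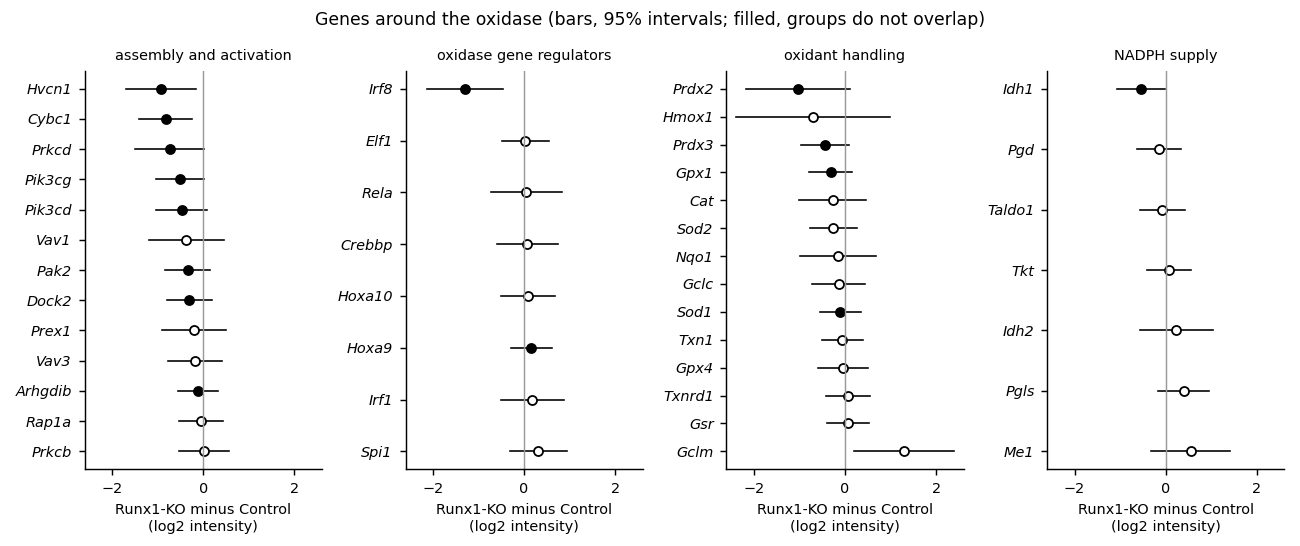
Log2 difference (arrays labelled Runx1-KO minus Control) with its 95% interval for the measured genes of 4 lists around the oxidase. Filled points are genes whose groups do not overlap, 8 of 13 in assembly and activation, 2 of 8 among regulators, 4 of 14 in oxidant handling and 1 of 7 in NADPH supply. Of the 9688 genes above background, 9.28% were separate and higher and 17.2% separate and lower.

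Enzymes that handle the oxidants had 11 negative and 3 positive differences among 14 measured genes, with 0 past the test, 4 separate and lower (17.2% of the 9688 genes above background were), and a median of -0.14. Leaving out Control 1 gave a median of -0.074, leaving out Control 3 gave -0.26, and leaving out both arrays numbered 1 gave -0.023. Gclm, the modifier subunit of the enzyme that limits glutathione synthesis, read 279, 206 and 294 in Runx1-KO-labelled leukemias, against 209.98, 66.7 and 81.6 in Control (log2 difference 1.30 ± 0.46, limma adjusted p = 0.382), with overlap through Control 1. Prdx2, a peroxiredoxin abundant in red cells, read 511, 521 and 472 in Runx1-KO-labelled leukemias, against 2213, 743 and 657 in Control, with no overlap. Its log2 difference was -1.04 ± 0.48 (limma adjusted p = 0.474) and -0.48 without Control 1, the array in which the summed intensity of the 5 measured erythroid markers was 1902. That sum was 43.4 to 102 in Runx1-KO-labelled leukemias, and 61.7 to 62.5 in the other Control arrays.

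Genes that supply NADPH showed no common direction, with 4 positive and 3 negative differences among 7 measured, 0 past the test and a median of 0.07. Idh1, the cytosolic isocitrate dehydrogenase, read 788, 826 and 716 in Runx1-KO-labelled leukemias, against 1077, 1378 and 979.6 in Control, separate and lower (log2 difference -0.55 ± 0.22; limma adjusted p = 0.434). Pgls, an enzyme of the pentose phosphate pathway, differed by 0.40 ± 0.23 (limma adjusted p = 0.564). The list of other NOX and DUOX oxidases also held genes of their partner proteins. Of its 5 measured genes, only Nox4 and Duox1 encode oxidases, and the oxidase genes Nox1, Nox3 and Duox2 were not measured. Signal was near background. Of the 5, 4, among them the DUOX partner gene Duoxa2 and Nox4, lay above the limit on no array, which left no fold to state. The partner gene Noxo1 lay above it on 3 of 3 arrays labelled Runx1-KO and 2 of 3 Control arrays.

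Markers of the cell types that carry the oxidase were read in the same arrays. Of 9 measured neutrophil markers, 9 had a positive difference (median log2 difference 1.41, and 0.98 without Control 2), 7 had separate groups (9.2% of all genes in that direction) and 0 passed, and their summed intensity was 18425, 16676 and 15748 in Runx1-KO-labelled leukemias, against 13086, 8391 and 10047 in Control. Of 9 measured monocyte and macrophage markers, 8 had a negative difference (median -1.15), 6 had separate groups and 0 passed. In that direction, 11.8% of all genes were separate, and 17.2% of the 9688 genes above background on all arrays, as 7 of these markers were. The summed intensity of the monocyte and macrophage markers was 6819.5, 5481 and 6372 in Runx1-KO-labelled leukemias, against 9139, 7877 and 9401 in Control. Control 2, where Cybb was low, was the lowest array for the neutrophil sum and the lowest Control array for the monocyte sum. S100a8 and S100a9 made up most of the neutrophil sum, and F13a1 was the brightest monocyte marker. Single markers went both ways in Control 2. Ltf, Ngp and Adgre1 were highest of Control there. Lowest of Control there were Camp, Mmp8, Mmp9, Cxcr2, S100a8, S100a9 and Lcn2, and Csf1r, Mpeg1, Cx3cr1, Ccr2, Ms4a6c and Cd68. F13a1 and C1qa lay between the other Control arrays. The macrophage marker C1qa was below background on all arrays and Cx3cr1 on all arrays labelled Runx1-KO. Among 5 measured B cell markers, Pax5 was below background on all 6 arrays, while Cd79a and Cd79b, which encode chains of the B cell receptor, were above it on all 6 and Ebf1 on 5 of 6. Cd79b read 205, 104 and 84.9 in Runx1-KO-labelled leukemias, against 126, 121 and 104 in Control. Of 5 measured T and NK cell markers, 4 (Cd3e, Cd3g, Cd5 and Gzma) were below background on every array labelled Runx1-KO and above it on 2 of 3 Control arrays each. The fifth, Nkg7, went the other way, at 35.7, 57.6 and 58.3 in Runx1-KO-labelled leukemias, against 19.1, 18.6 and 4.11 in Control, with no overlap (log2 difference 2.12, limma adjusted p = 0.328). The summed intensity of the 4 progenitor markers ranged from 2278 to 2899 in Runx1-KO-labelled leukemias, against 2599 to 3757 in Control. Myb made up most of that sum. Cd34 read 46.1, 67.0 and 57.5 in Runx1-KO-labelled leukemias, against 69.4, 245 and 189 in Control. Its groups did not overlap, as in 17.2% of the 9688 genes above background on all arrays in that direction. The log2 difference of Cd34 was -1.39 (limma adjusted p = 0.380). Kit, Myb and Flt3 overlapped. The sum of the 4 eosinophil markers ranged from 554 to 1138 in Runx1-KO-labelled leukemias, against 552 to 1629 in Control. Its members went both ways, with Prg2 (1.14) and Epx (0.96) higher and Siglecf (-0.67) and Ccr3 (-0.98, below background) lower. B cell markers summed to between 150.5 and 276 in Runx1-KO-labelled leukemias, against 163 to 228 in Control, and T and NK cell markers to between 66.0 and 77.3 in Runx1-KO-labelled leukemias, where Nkg7 made up most of the sum, against 78.8 to 125 in Control. The part of cell makeup in the oxidase values was not tested.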

How the data were processed

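Total RNA of 6 leukemias was column-purified and its cDNA biotin-labelled (NuGEN Ovation), per the labels' protocols. The authors deposited 1 linear intensity per probe set and array. Probe summary, background correction and normalization are not given in the sources used here. Genes were named from the platform annotation: of 45037 probe sets that are not controls, 34945 had 1 symbol, 932 several and 9160 none. Intensities were taken to log2 and compared with limma 3.58.1 (lmFit, eBayes) in R 4.3.3 over all 45037 probe sets, two-sided, with no covariate or filter and Benjamini-Hochberg adjustment at 0.05. Differences are Runx1-KO minus Control. Gene lists used the brightest probe set of each of 18193 genes, and no list was tested as a set. Ratios of partner subunits were tested by exact permutation over arrays (scipy 1.17.1). The fit was tested on simulated data.

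The members, lists and tests were chosen with earlier results of these data known. All member probe sets were named. From each pathway list, members past the threshold or else the 2 of lowest p were named, others are marked in the text, and for each member the 3 genes of nearest profile. List members without a probe set of their own symbol were not analysed here. The number of arrays limits the precision. Alternatives were quantile normalization, median centring, an offset of 16, a filter on dim probe sets, 1 probe set per gene, robust fitting with a variance trend, weights on arrays, the replicate number as a block, and leaving out arrays.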

Additional observations from a re-analysis of the deposited data

How the results depend on the processing

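No oxidase probe set passed in any of the 15 alternatives that held it. The fit on 1 probe set per gene held 6 of the 13, and the filter on dim probe sets left out Rac1 1437674_at. Of the brightest probe sets, those of Cyba, Ncf1, Ncf4, Rac1 and Rac2 kept their sign under all of them. Cybb reversed without Control 2 (-0.019 on 1436778_at, -0.28 on 1422978_at and -0.090 on 1436779_at), and Rac1 1437674_at, which is below background, reversed without both arrays numbered 1 (-0.070). Ranges with 1 array left out were -0.019 to 1.24 for Cybb 1436778_at, up to 1.04 for 1422978_at and 1.17 for 1436779_at, -0.14 to -0.039 for Cyba, -0.32 to -0.050 for Ncf1 1456772_at, -0.33 to -0.090 for 1451767_at, -0.44 to -0.21 for 1425609_at, -0.64 to -0.39 for Ncf4, -0.14 to -0.080 for Rac1 1451086_s_at and -0.58 to -0.27 for Rac2 1417620_at. Over the whole array, 11 probe sets passed the threshold as higher and 20 as lower. Those lower included probe sets of the Y-linked genes Eif2s3y, Kdm5d and Uty, and sex cannot be told apart from genotype here. The count of probe sets past the threshold was far less stable, and the cause was not tested. It was 29 and 62 with the offset, 27 and 39 with the filter on dim probe sets, 4 and 9 with 1 probe set per gene, 82 and 121 with the variance trend and robust fitting, and 19 higher with array weights. With any 1 array left out it was 1 to 3 higher and 3 to 6 lower. Without both arrays numbered 1 limma called 0 and 0, with 5065 probe sets at an unadjusted p below 0.05.

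With the replicate block limma called 0 higher and 0 lower, with 4464 at an unadjusted p below 0.05, and no oxidase probe set passed in either fit. Deviations of same-numbered arrays from their group means correlated at 0.022, -0.14 and 0.091, so they shared little by number. These values cannot tell whether same-numbered samples were paired in their origin or handling. List medians were refitted in the same way after the data were seen. That of assembly and activation ran from -0.40 to -0.23 with 1 array left out, and that of oxidant handling from -0.26 to -0.074. That of NADPH supply was 0.14 with quantile normalization, -0.0044 with the filter, -0.053 without both arrays numbered 1 and -0.033 to 0.10 with 1 array left out, so it had no stable sign. That of the regulators was 0.22 without both arrays numbered 1, and -0.011 to 0.17 with 1 array left out.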
